A study of Mus musculus with 30 samples.

Results

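The genes described here are 9 components of the epithelial tight junction, chosen by their symbols from the 47069 genes of the table. They are the claudins Cldn2 (ENSMUSG00000047230), Cldn15 (ENSMUSG00000001739), Cldn3 (ENSMUSG00000070473), Cldn4 (ENSMUSG00000047501), Cldn7 (ENSMUSG00000018569) and Cldn23 (ENSMUSG00000055976), together with Ocln (ENSMUSG00000021638), F11r (ENSMUSG00000038235) and Tjp1 (ENSMUSG00000030516). RNA of C57BL/6 mice was sequenced after poly-A selection from duodenum and from liver. Mice received fructose, dextrose (D-glucose) or a control diet, the last labelled as corn starch, and each of the 6 tissue and diet groups had 5 libraries, 30 in all. Age, sex, dose and length of feeding are not stated in the labels, and all mice share the C57BL/6 background with no further allele named. Whether the libraries of a group come from different mice is not stated, so a p-value here reflects only the spread among libraries, which may be technical.

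The tight junction seals the space between neighbouring epithelial cells near their apical side. Claudins are membrane proteins that set which ions and solutes pass between the cells, and some of them form pores while others tighten the seal. Occludin, encoded by Ocln, is a membrane protein of the MARVEL family, JAM-A, encoded by F11r, is an immunoglobulin-type adhesion protein, and ZO-1, encoded by Tjp1, is the scaffold that ties these proteins to actin. In the intestine claudin-2 and claudin-15 form channels for small cations, and in the liver tight junctions seal the bile canaliculi and bile ducts.

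Of the 9 genes, 8 have an entry among the RefSeq promoter windows of build GRCm38.p6, and Cldn23 has none. Each window runs from 250 bases before to 50 after the annotated start. Shown 5′ to 3′ are the windows of 4 genes chosen as contrasts between the tissues. Cldn2, on chromosome X at chrX:139800558-139800857 on the plus strand, was higher in liver. Cldn15, at chr5:136967619-136967918 on the plus strand, was, with Cldn7, among the genes with the widest gaps in favour of the duodenum. Cldn3, at chr5:134985964-134986263 on the plus strand, and Cldn4, at chr5:134946885-134947184 on the minus strand, are neighbouring coding genes on chromosome 5, and of the pair Cldn3 alone was well above the lowest levels in liver.

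Cldn2: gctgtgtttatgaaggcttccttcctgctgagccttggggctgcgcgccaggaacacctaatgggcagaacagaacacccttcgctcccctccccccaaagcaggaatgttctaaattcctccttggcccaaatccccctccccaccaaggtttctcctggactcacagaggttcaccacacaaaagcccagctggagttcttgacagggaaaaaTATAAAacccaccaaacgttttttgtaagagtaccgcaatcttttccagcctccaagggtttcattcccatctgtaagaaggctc

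Cldn15: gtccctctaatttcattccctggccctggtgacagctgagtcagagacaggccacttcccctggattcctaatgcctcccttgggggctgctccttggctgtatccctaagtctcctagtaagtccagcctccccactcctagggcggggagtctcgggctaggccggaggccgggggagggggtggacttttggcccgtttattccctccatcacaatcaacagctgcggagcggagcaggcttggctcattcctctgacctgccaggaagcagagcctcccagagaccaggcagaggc

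Cldn3: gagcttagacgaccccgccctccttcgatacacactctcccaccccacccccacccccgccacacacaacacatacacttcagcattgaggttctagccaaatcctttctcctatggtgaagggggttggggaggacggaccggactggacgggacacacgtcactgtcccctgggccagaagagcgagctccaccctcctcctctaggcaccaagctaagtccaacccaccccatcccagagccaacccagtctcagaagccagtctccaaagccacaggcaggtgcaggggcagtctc

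Cldn4: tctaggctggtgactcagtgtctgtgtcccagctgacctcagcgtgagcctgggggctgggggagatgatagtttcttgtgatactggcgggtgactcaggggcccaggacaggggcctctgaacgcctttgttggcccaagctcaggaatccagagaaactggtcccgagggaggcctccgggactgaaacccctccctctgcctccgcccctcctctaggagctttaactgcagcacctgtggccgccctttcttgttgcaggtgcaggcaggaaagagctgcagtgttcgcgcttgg

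Capitals mark the letters TATAAA, which start 35 bases before the annotated start of Cldn2. The windows of the 8 genes were searched on both strands for 6 motifs, and TATAAA in Cldn2 was the one match. Among the 32851 windows of the table, TATAAA was present in 13.6%. The grainyhead motif AACCNGTT was present in 2.09% of these windows and the HNF4 motif CAAAGNNCA in 6.36%. The CDX motif TTTATNG, which can overlap the TATA letters, was present in 10.9% of all windows. For GATA factors the letters AGATAA were searched, which 11.2% of all windows hold. For the E-box the letters CACGTG were searched, which 7.15% of all windows hold. A match is a description of letters, and no match says only that those letters are not in that window. The windows of Cldn15, Cldn3 and Cldn4 had a GC content of 61.0%, 60.7% and 61.0%, and that of Cldn2 had 51.3%. Those of Cldn7, higher in duodenum like Cldn15, had 52.0% and 62.3%, and those of Ocln, F11r and Tjp1 had 60.3% to 68.0%.

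Total counts ran from 14530137 to 19850935 per library. Levels are given as CPM, counts scaled by the library total and TMM factors within the tissue. In the tests between the tissues all 30 libraries were scaled together. Hepatocyte markers (Alb, Fgb, Serpina3k, Ahsg and Apoh) summed to 59801 to 97738 CPM in the liver groups. They were at 0.732 to 1.61 CPM in every duodenum library but control 5. Enterocyte markers summed to 18408 to 27397 CPM in duodenum and to 291 to 1493 CPM in liver. Several libraries stood apart. Duodenum control 5 held 170 CPM of hepatocyte markers, and duodenum control 3 and fructose 3 held 102 and 44.1 CPM of pancreatic acinar enzymes. In liver, control 2 and dextrose 5 had cell cycle genes at 116 and 128 CPM, where the median of their groups was 5.60 and 4.37 CPM. Calls of the diet comparisons are given with and without these libraries where that changes them. Liver libraries also held acinar enzymes, at 807 CPM in dextrose 5, 245 CPM in control 5 and 152 CPM in control 2. Liver dextrose 4 and fructose 5 held 133 and 56.2 CPM. Of these, liver control 5, dextrose 4 and fructose 5 were kept in the fits without the libraries that stood apart. In bulk tissue, fewer cells of a type and less RNA per cell cannot be told apart.

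Levels of the 9 genes were compared first between the tissues, per length, as the FPKM deposited by the authors (fragments scaled by gene length and library total). In duodenum on the control diet Cldn7, a claudin of the lateral membrane, was highest at 964 ± 69.5 FPKM (SD, n = 5), followed by the pore-forming Cldn15 at 570 ± 55.2 FPKM. Cldn3, a sealing claudin, had 304 ± 67.5 FPKM and F11r 261 ± 18.6 FPKM, with overlapping ranges. Cldn4, also a sealing claudin in many epithelia, had 99.3 ± 31.9 FPKM and overlapped Ocln at 58.6 ± 12 FPKM. Lowest were Cldn2 at 31.5 ± 10.4 FPKM, Cldn23 at 21.5 ± 3.68 FPKM and Tjp1 at 20.8 ± 3.24 FPKM, whose ranges overlapped from each one to the next in this order. Cldn7 and Cldn15 therefore made up 41.4% ± 1.81 and 24.5% ± 2.69 of the summed FPKM of the 9 genes.

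The order in liver was another one. On the control diet Cldn3 led at 99.3 ± 25.9 FPKM (SD, n = 5), Cldn2 followed at 79.3 ± 14.8 FPKM and F11r at 70.4 ± 26.4 FPKM, and the ranges of these neighbours overlapped. Tjp1 stood at 11.4 ± 5.45 FPKM and Ocln at 9.26 ± 3.91 FPKM, again with overlap. The other 4 claudins were below 1 FPKM on average, at 0.885 ± 0.46 for Cldn7, 0.484 ± 0.162 for Cldn15, 0.38 ± 0.479 for Cldn4 and 0.115 ± 0.13 for Cldn23. Over all 15 liver libraries Cldn4 had 0 to 42 counts and Cldn23 had 0 to 12 counts. The summed level of the 9 genes was 2330 ± 143 FPKM in duodenum and 271 ± 41.2 FPKM in liver.

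**Figure D1:**
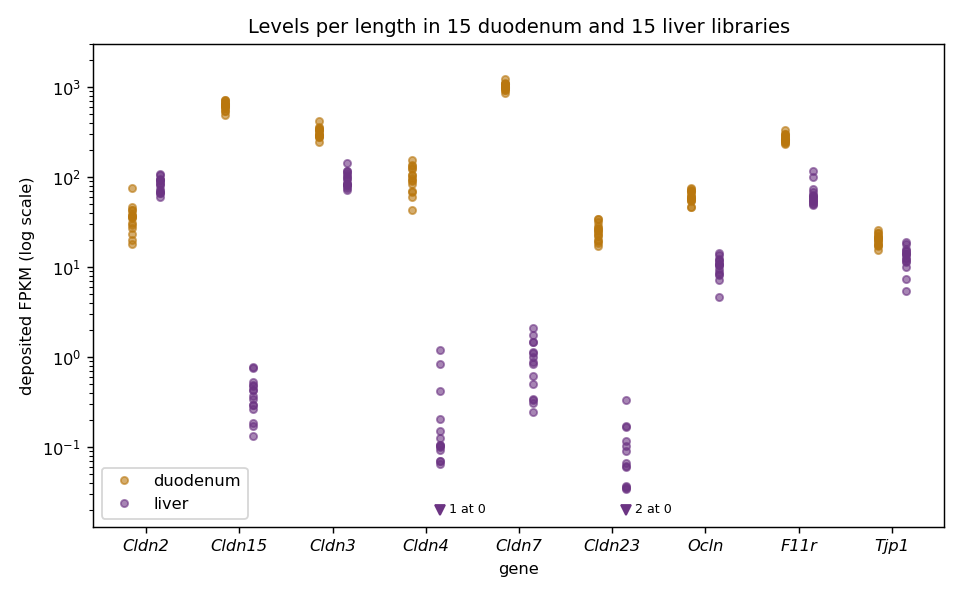
Deposited FPKM (log axis) of the 9 genes, 1 point per library, in 15 duodenum and 15 liver libraries of all diets; triangles at the lower edge count libraries at 0. Cldn2 is the gene whose points lie higher in liver, and Cldn4, Cldn7, Cldn15 and Cldn23 lie near or below 1 FPKM there.

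With edgeR's quasi-likelihood test on the control diet, all 9 genes differed between the tissues after Benjamini-Hochberg adjustment, 8 higher in duodenum and 1 lower. Of all 15268 genes tested, 74.6% passed the same test, 37.3% higher and 37.3% lower, so that 9 of 9 is a count read against a background in which most genes differ. Ranges of the controls did not overlap for 8 of the 9, against 56.5% of all genes. Cldn4 and Cldn23 did not pass the filter on low counts in liver alone, so for them the filter fixed the direction. Cldn2 was the gene lower in duodenum, with 42.4, 52.8, 28.8, 21.1 and 47.1 CPM in the 5 controls against 111, 84.8, 136, 166 and 108 CPM in liver, both scaled over the 30 libraries. Its log2 difference, duodenum minus liver, was -1.66 ± 0.26 (SE, n = 5 per tissue, adjusted p = 1.55e-06 by edgeR). In the other direction Cldn15 had 611 to 830 CPM in duodenum and 0.556 to 1.33 CPM in liver, a difference of 9.88 ± 0.29 (adjusted p = 3.25e-22 by edgeR).

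Among the other claudins the log2 difference was 9.77 ± 0.38 for Cldn7, 7.72 ± 0.49 for Cldn4, 7.17 ± 0.32 for Cldn23 and 1.28 ± 0.17 for Cldn3 (SE). The neighbours Cldn3 and Cldn4 thus differed widely in this contrast, with Cldn3 at 273 to 475 CPM in duodenum and 104 to 223 CPM in liver, and Cldn4 at 112 to 238 CPM in duodenum and 0.136 to 1.94 CPM in liver. The highest liver control of Cldn4 was control 2, which also held 1120 CPM of the epithelial structural genes Krt8, Krt18, Krt19, Krt20, Vil1 and Ezr, against 274 to 391 CPM in the other liver controls. Without the libraries that stood apart the difference was 8.82 for Cldn4 and 8.03 for Cldn23, both wider than with them. Ocln differed by 2.36 ± 0.20 and F11r by 1.62 ± 0.14. Tjp1 differed least, by 0.60 ± 0.18 (adjusted p = 0.00475 by edgeR), and its ranges overlapped, at 48.6 to 66.9 CPM in duodenum and 19.9 to 55.9 CPM in liver. Without the libraries that stood apart the differences were 9.67 for Cldn15, 9.79 for Cldn7, 2.44 for Ocln, 1.73 for F11r, 1.29 for Cldn3, 0.68 for Tjp1 and -1.77 for Cldn2, so that Cldn15 and Cldn7 changed order. Under the 11 other settings, and without each of the 30 libraries in turn, all 9 stayed past the threshold.

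The remaining junction genes were read from 6 lists with 82 members, of which 66 could be tested between the tissues. There 45 were higher and 15 lower in duodenum, where 37.3% of all genes were higher and 37.3% lower, with a median log2 difference of 1.15 against -0.00 over all genes. The filter on low counts passed 63 of these genes in the fit of duodenum and 61 in that of liver. For genes that passed through 1 tissue only, the filter fixed the direction, so the 45 and 15 include directions that were not free. In the list of other claudins 17 were found, 4 could be tested and all 4 were lower in duodenum. In the fits of 1 tissue, 2 of the list passed the filter on low counts in duodenum and 4 in liver. A claudin near 0 in duodenum could pass only through liver, so its direction was fixed by the filter. Cldn1, a barrier claudin of skin and liver, had 0.122 CPM in duodenum and 94.4 CPM in liver, and Cldn14, a barrier claudin of the inner ear, had 0.0446 and 11.7 CPM. Cldn5, the claudin of endothelial cells, had 0.809 and 8.67 CPM, beside an endothelial marker list that summed to 4.28 to 18.4 CPM in duodenum controls and 94.5 to 151 CPM in liver controls. Cldn12 had 30.1 and 92.8 CPM.

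The second question was whether a sugar diet moved these genes in the duodenum. Cldn23 rose on fructose, with a fold of 1.51 over control and 1.42 over dextrose, and no other of the 9 genes passed the threshold in any of the 3 duodenum comparisons. Cldn23 encodes a claudin found in differentiated intestinal epithelial cells. It had 48.0, 31.6, 40.7, 42.5 and 32.9 CPM on control, 50.2, 63.3, 63.1, 56.1 and 63.1 CPM on fructose, and 48.1, 36.9, 46.8, 36.4 and 39.6 CPM on dextrose (CPM scaled by TMM factors within the tissue, libraries 1 to 5 of each diet). All 5 fructose libraries lay above every control and dextrose library, and the dextrose and control ranges overlapped. Ranges of fructose and control do not overlap in 1 of the 9 genes and in 7.07% of all genes. Fructose exceeded control by 0.60 ± 0.12 on the log2 scale (SE, n = 5, 95% interval 0.34 to 0.85), with an adjusted p of 0.00518 by edgeR's quasi-likelihood test. Fructose exceeded dextrose by 0.51 ± 0.12 (interval 0.26 to 0.76), with an adjusted p of 0.0227 by edgeR. Dextrose minus control was 0.09 ± 0.12 (interval -0.17 to 0.34, adjusted p = 0.936 by edgeR). The comparisons share groups, so the first and second are not independent of each other.

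For that count of 1 of 9 higher in fructose against control the background was 4.01% of 13884 genes called higher and 6.71% called in either direction. In fructose against dextrose it was 2.17% higher and 3.64% in either direction, and in dextrose against control, where 0 of 9 were called, 2.25% in either direction. Without duodenum control 3, control 5 and fructose 3, the rise of Cldn23 had nearly the same size, 0.51 over control and 0.49 over dextrose, and did not pass the threshold, with adjusted p of 0.114 and 0.0886 by edgeR. Leaving out 1 library at a time kept the call against control, with adjusted p by edgeR from 0.00235 to 0.0179. Against dextrose the call was lost without fructose 2, 3 or 5 or dextrose 2 or 4, where the adjusted p by edgeR was 0.063, 0.0627, 0.0535, 0.0712 and 0.0744.

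**Figure D2:**
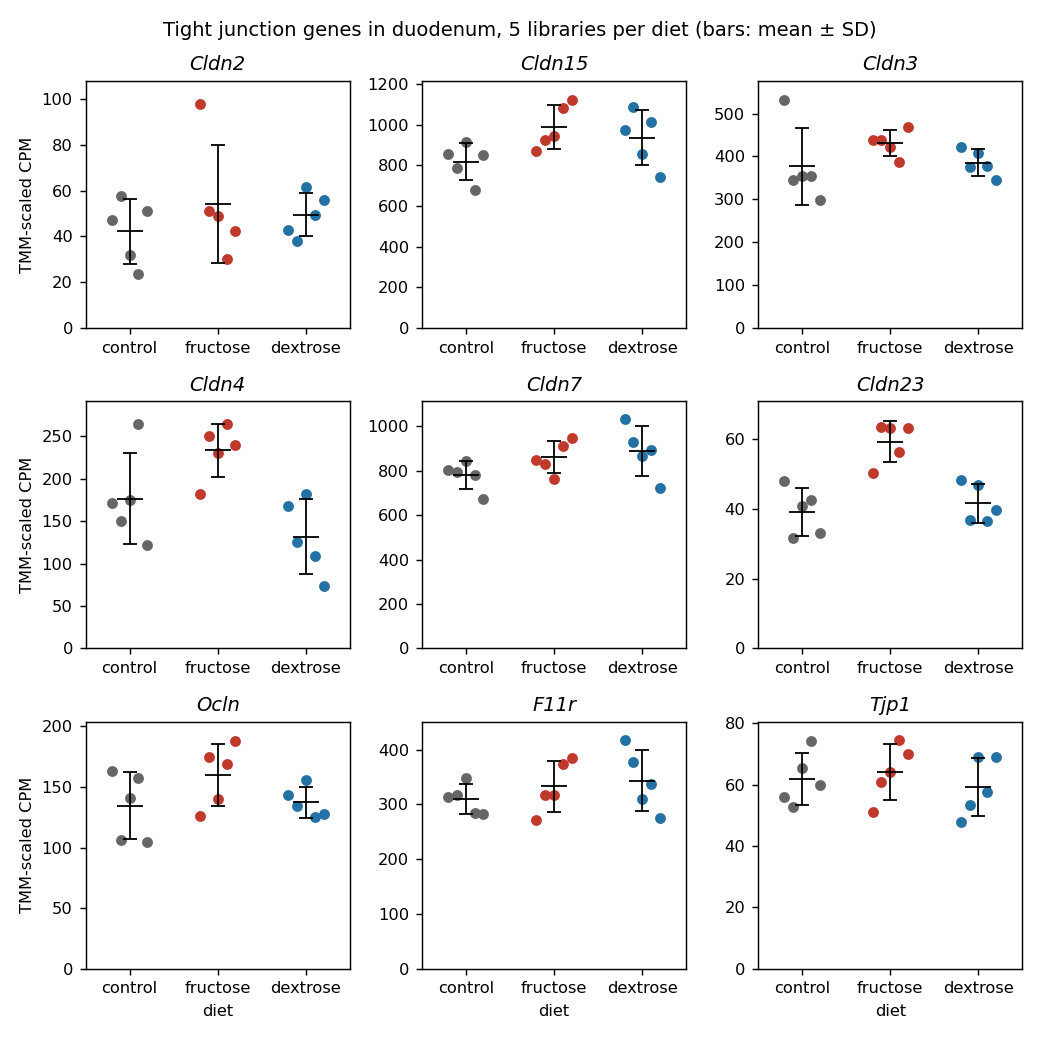
CPM of each of the 9 genes in duodenum by diet, 1 point per library, with the mean and SD of 5 libraries as bars and each axis starting at 0. The 5 fructose points of Cldn23 lie between 50.2 and 63.3 CPM, above every control and dextrose point, while the diets overlap for most other genes.

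Cldn4 was the other gene whose fructose and dextrose libraries did not overlap. It had 171, 150, 175, 265 and 122 CPM on control, 182, 251, 230, 265 and 240 CPM on fructose, and 168, 126, 182, 109 and 73.7 CPM on dextrose. The lowest fructose and the highest dextrose library both round to 182 CPM, with fructose the higher, and control spanned most of both ranges. Fructose minus dextrose was 0.83 ± 0.23 on the log2 scale (SE, n = 5, interval 0.34 to 1.31), a fold of 1.77 that narrowly missed the threshold with an adjusted p of 0.0561 by edgeR. It passed under 6 other settings, with adjusted p of 0.00581 by DESeq2 and 0.0064 by limma's voom among them, and without dextrose 3, control 4 or control 5. Without all 3 libraries that stood apart the difference was again 0.83 (adjusted p = 0.12 by edgeR). Fructose minus control was 0.40 ± 0.23 (adjusted p = 0.352) and dextrose minus control -0.42 ± 0.23 (adjusted p = 0.553), both by edgeR. Ranges that do not overlap between fructose and dextrose occurred in 2 of the 9 genes and in 6.11% of all genes.

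The pore-forming claudins did not pass in any duodenum comparison. Cldn15 had 856, 787, 915, 679 and 851 CPM on control, 868, 923, 946, 1082 and 1123 CPM on fructose, and 975, 1087, 857, 1013 and 744 CPM on dextrose. Fructose and control overlapped from 868 to 915 CPM. The log2 difference was 0.27 ± 0.11 for fructose minus control (interval 0.03 to 0.51, adjusted p = 0.185 by edgeR) and 0.19 ± 0.11 for dextrose minus control (adjusted p = 0.62 by edgeR). Cldn2 had 47.4, 57.5, 31.8, 23.4 and 51.3 CPM on control, 98.1, 51.2, 48.8, 30.1 and 42.4 CPM on fructose, and 43.0, 38.1, 61.5, 49.2 and 56.1 CPM on dextrose. Its spread was the widest of the 9, with a within-diet SD of 0.50 on the log2 scale, and its 95% interval for fructose minus control ran from -0.26 to 0.98.

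Cldn2 is expressed in the crypts of the intestine, so its values were set beside the sum of crypt markers (Lgr5, Olfm4, Ascl2, Smoc2 and Axin2). Fructose 1, with Cldn2 at 98.1 CPM, had the highest crypt sum of its diet, 334 CPM, against a fructose median of 189 CPM. Fructose 4, with Cldn2 at 30.1 CPM, had a crypt sum of 104 CPM, and control 4, with Cldn2 at 23.4 CPM, had the lowest crypt sum of the controls, 116 CPM. Fructose 5 had the lowest sum, 79.3 CPM, and Cldn2 at 42.4 CPM. Dextrose 3 had the highest of both in its diet, Cldn2 at 61.5 CPM and a crypt sum of 214 CPM. Dextrose 2 had the lowest Cldn2 of its diet, 38.1 CPM, with a crypt sum of 150 CPM. Dextrose 5 had Cldn2 at 56.1 CPM with the lowest crypt sum of its diet, 132 CPM. None of the 5 crypt markers was called in a duodenum comparison. The part of crypt content in the Cldn2 values was not tested.

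The sealing claudin Cldn3 and the lateral claudin Cldn7 did not pass the test either. Cldn3 had 531, 346, 355, 355 and 298 CPM on control, 439, 439, 422, 388 and 468 CPM on fructose, and 422, 375, 409, 377 and 344 CPM on dextrose. Control 1 stood above every other duodenum library, and the other 4 controls lay below every fructose library. Fructose minus control was 0.19 ± 0.12 (SE, n = 5, adjusted p = 0.423 by edgeR) with all libraries. It was 0.35 (adjusted p = 0.0276 by edgeR) without control 1. Without the libraries that stood apart it was 0.078 (adjusted p = 0.881 by edgeR). Leaving out 1 library at a time gave 0.121 to 0.352, so this value depends on which libraries are kept. Cldn7 had 804, 797, 845, 783 and 675 CPM on control, 849, 832, 764, 912 and 950 CPM on fructose, and 1032, 928, 867, 895 and 723 CPM on dextrose. Its log2 differences were 0.14 ± 0.10, 0.19 ± 0.10 and -0.04 ± 0.10 for fructose minus control, dextrose minus control and fructose minus dextrose, with adjusted p of 0.474, 0.548 and 0.888 by edgeR.

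Ocln, F11r and Tjp1 overlapped among all 3 diets. Dextrose and control overlapped for all 9 genes, where 3.48% of all genes did not. Ocln had 163, 106, 141, 157 and 105 CPM on control, 126, 175, 140, 169 and 188 CPM on fructose, and 143, 134, 156, 125 and 128 CPM on dextrose. F11r had 314, 318, 349, 285 and 283 CPM on control, 272, 318, 317, 374 and 385 CPM on fructose, and 418, 377, 310, 337 and 275 CPM on dextrose. Tjp1 had 56.1, 52.9, 65.4, 74.4 and 60.0 CPM on control, 51.1, 60.9, 64.3, 74.6 and 70.1 CPM on fructose, and 48.0, 53.3, 69.1, 57.5 and 69.0 CPM on dextrose. Their fructose minus control differences were 0.25 (interval -0.04 to 0.53), 0.10 (-0.14 to 0.35) and 0.06 (-0.21 to 0.32) on the log2 scale. For Tjp1 the interval for dextrose minus control was -0.32 to 0.21.

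Across the 9 genes the fitted log2 difference of fructose minus control was above 0 for all 9, with a median of 0.25, where all genes had a median of -0.02. For dextrose minus control 7 were above and 2 below 0, with a median of 0.09 against -0.01. For fructose minus dextrose 7 were above and 2 below, with a median of 0.13 against -0.01. The values of one gene in these contrasts share libraries, and the 9 genes share the same libraries, so the signs are not independent.

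**Figure D3:**
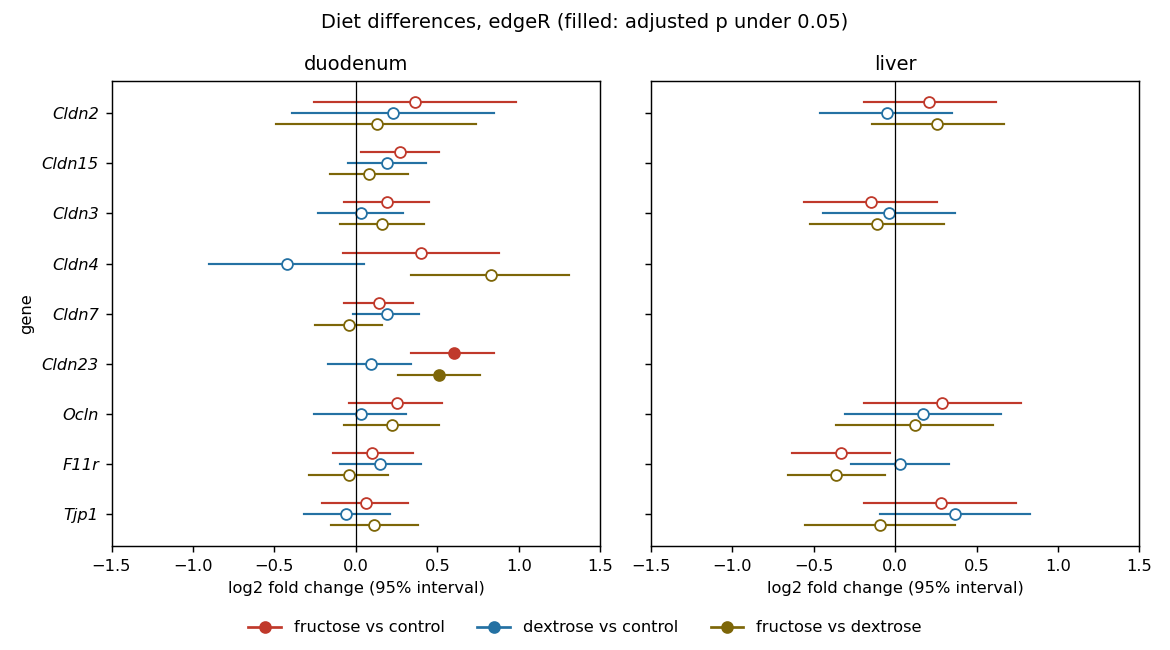
Log2 fold change with its 95% interval for each gene and diet comparison, duodenum on the left and liver on the right; filled points have an adjusted p under 0.05 by edgeR, and the 4 genes missing on the right are low or absent in liver. The filled points are Cldn23 in fructose against control and fructose against dextrose.

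The junction genes are made by epithelial cells, so their levels were also set against epithelial structural genes. Controls had a sum of 9212 to 11855 CPM over these 6 genes, fructose libraries 9022 to 11506 CPM and dextrose libraries 9017 to 12128 CPM, and 0 of 6 were called in any duodenum comparison (medians of log2 differences from -0.03 to 0.01). In each library the mean log2 CPM of the 6 genes was subtracted from the log2 CPM of each gene. Against this level, Cldn23 was higher on fructose than on control by 0.66 and than on dextrose by 0.56, and the ranges again did not overlap. Cldn4 was higher on fructose than on dextrose by 0.93, without overlap. Cldn15 stood at -0.43, -0.61, -0.45, -0.46 and -0.52 on control, at -0.29, -0.28, -0.17, 0.00 and -0.09 on fructose and at -0.33, -0.27, -0.38, -0.17 and -0.33 on dextrose, so that both sugars lay above control without overlap, by 0.33 and 0.20. Of all genes, 5.63% did not overlap between fructose and control on this scale, 2.45% between dextrose and control and 4.82% between fructose and dextrose. These are descriptions of relative levels, with no test.

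Some enterocyte markers differed between diets, in both directions. On fructose against control 1 of the 6, Sis (sucrase-isomaltase), rose and 3 fell, Fabp2, Apoa4 and Anpep. Of all genes, 4.01% were called higher there and 2.7% lower. On dextrose against control Sis rose and Fabp2 and Apoa4 fell, where 2.25% of all genes were called in either direction. On fructose against dextrose Anpep was lower, as were 1.48% of all genes. Alpi and Lct were not called in these comparisons. The summed enterocyte list had its lowest and highest control libraries at 23206 and 27397 CPM, those of fructose at 18408 and 27230 CPM, and those of dextrose at 19175 and 23694 CPM. Their part in the junction values was not tested.

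By the likeness rule the genes with profiles closest to that of Cldn23 over the 15 duodenum libraries, among 9385 genes averaging 5 CPM or more, were Sdcbp2 and Gde1. Their root mean square differences from Cldn23 in centred log2 CPM were 0.116 and 0.131, where the median over all these genes was 0.377 and the spread of Cldn23 about its own mean was 0.321.

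Other genes of the junction were tested to place the 9 among their neighbours in the pathway. Of the 82 listed, 81 were found by symbol and 63 could be tested in duodenum. On fructose against control 3 rose and 0 fell, with a median log2 difference of 0.03 against -0.02 over all genes. The background was 4.01% of all genes called higher and 2.7% lower. On dextrose against control 0 were called, and on fructose against dextrose 1 was lower, against 1.48% of all genes lower.

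Cxadr, which encodes an adhesion protein of the tight junction that also serves as a virus receptor, had the clearest rise. It had 112, 111, 123, 116 and 95.3 CPM on control, 144, 173, 171, 183 and 204 CPM on fructose, and 146, 137, 152, 135 and 133 CPM on dextrose. Each sugar group lay above all controls, and fructose and dextrose overlapped. Fructose exceeded control by 0.65 ± 0.09 on the log2 scale (SE, n = 5, fold 1.57, adjusted p = 2.60e-04 by edgeR), and did so past the threshold under every alternative run. Dextrose minus control was 0.33 ± 0.09 (adjusted p = 0.0753 by edgeR) and fructose minus dextrose 0.32 ± 0.09 (adjusted p = 0.0691 by edgeR).

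Cldn12, a claudin found in many tissues, had 35.5, 32.5, 27.6, 34.9 and 35.2 CPM on control, 46.9, 40.9, 44.4, 47.2 and 44.3 CPM on fructose, and 41.5, 36.3, 45.0, 37.4 and 45.1 CPM on dextrose. Both sugar groups lay above control. The difference was 0.43 ± 0.09 for fructose minus control (adjusted p = 0.00596 by edgeR) and 0.31 ± 0.09 for dextrose minus control (adjusted p = 0.0936 by edgeR). Without the 3 libraries that stood apart the fructose value was 0.39 (adjusted p = 0.0896 by edgeR). Rock2, a kinase that acts on actomyosin contraction, rose by 0.43 ± 0.12 on fructose (adjusted p = 0.0407 by edgeR) with overlapping ranges, and missed the threshold in 16 alternatives, where the value was 0.33 to 0.46, among them the fit without the libraries that stood apart (0.40, adjusted p = 0.262 by edgeR).

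The gene lower on fructose than on dextrose was Inadl (Patj), a polarity scaffold, named after its value was seen. It had 93.7, 106, 107, 116 and 121 CPM on fructose and 132, 144, 122, 136 and 136 CPM on dextrose, a difference of -0.30 ± 0.08 (adjusted p = 0.0412 by edgeR) that missed the threshold in 19 alternatives, among them the fit without the libraries that stood apart (-0.29, adjusted p = 0.162). Adherens junction genes (10 tested) and desmosome genes (7 tested) had 0 calls in all 3 duodenum comparisons.

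**Figure D4:**
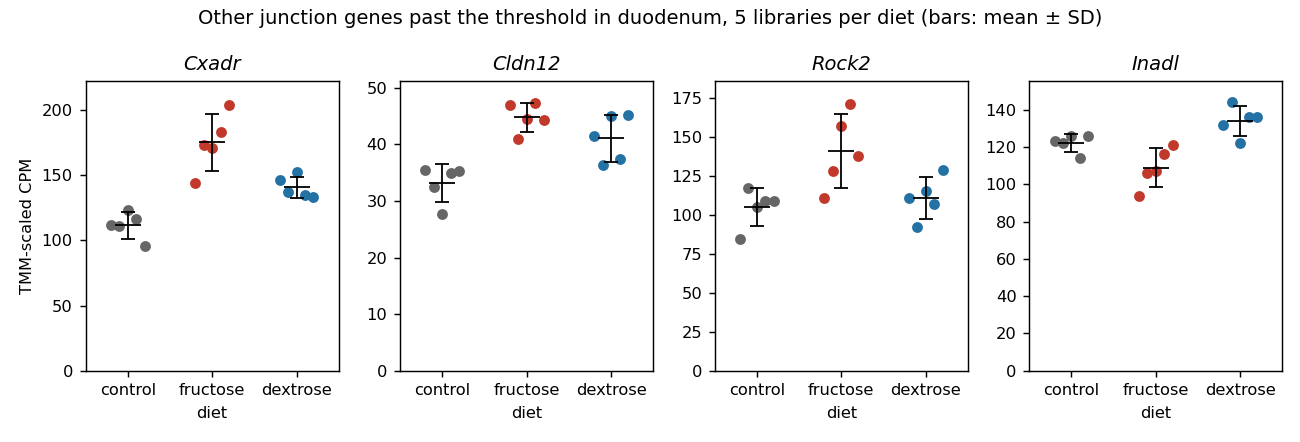
CPM of the 4 other junction genes past the threshold in a duodenum comparison, 1 point per library, with the mean and SD of 5 libraries as bars and each axis starting at 0. Fructose lies above control without overlap for Cxadr and Cldn12 and with overlap for Rock2, and Inadl lies lower on fructose than on dextrose.

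In liver 7 of the 9 genes passed the filter on low counts; Cldn4 and Cldn23 did not, and Cldn15 and Cldn7 passed with less than 1.5 CPM in every library. With edgeR 0 of the 7 were called in any diet comparison. The background was 0.258% of 13178 genes for fructose against control, 0 genes for dextrose against control (554 at an unadjusted p under 0.05, and 1 gene called by DESeq2) and 0.0759% for fructose against dextrose. Without control 2 and dextrose 5, the count over all genes rose to 225 for fructose against control and 250 for fructose against dextrose, and 0 of the 9 genes were called. All 7 overlapped in every comparison, where the ranges of 2.88% of all genes did not overlap between fructose and control, 0.349% between dextrose and control and 3.61% between fructose and dextrose. At an unadjusted p under 0.05, F11r was the one member in fructose against control, where 11.7% of all genes passed, and in fructose against dextrose, where 9.45% did, so that 1 of 7 is near the background.

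F11r had 67.5, 115, 74.0, 78.8 and 77.5 CPM on control, 67.6, 62.3, 62.0, 59.7 and 76.3 CPM on fructose, and 73.2, 92.5, 73.3, 81.2 and 100 CPM on dextrose. The fructose libraries were the lowest on average, with ranges that overlapped both other diets. Fructose minus control was -0.33 ± 0.14 (SE, adjusted p = 0.374 by edgeR) and fructose minus dextrose -0.36 ± 0.14 (adjusted p = 0.433 by edgeR). The highest control and the highest dextrose values lay in control 2 and dextrose 5, the libraries with 1120 and 664 CPM of epithelial structural genes, where the fructose group had 235 to 336 CPM. Without these libraries the differences were -0.19 (adjusted p = 0.356) and -0.27 (adjusted p = 0.198), both by edgeR.

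The 2 claudins abundant in liver showed no called difference. Cldn2 had 101, 76.9, 122, 150 and 95.6 CPM on control, 150, 132, 123, 91.8 and 135 CPM on fructose, and 84.0, 122, 120, 125 and 75.1 CPM on dextrose. Cldn3 had 102, 94.3, 200, 128 and 109 CPM on control, 108, 130, 104, 91.6 and 137 CPM on fructose, and 98.5, 144, 109, 145 and 120 CPM on dextrose. Each overlapped among the diets. The fructose minus control differences were 0.21 ± 0.19 for Cldn2 (interval -0.19 to 0.62) and -0.15 ± 0.19 for Cldn3 (interval -0.56 to 0.26).

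Tjp1 had 31.2, 44.4, 17.8, 50.6 and 22.9 CPM on control, 46.3, 39.1, 42.3, 36.4 and 38.1 CPM on fructose, and 35.6, 43.1, 43.9, 45.5 and 47.6 CPM on dextrose. Ocln had 19.4, 22.9, 18.4, 35.3 and 11 CPM on control, 20.3, 28.0, 28.3, 21.2 and 33.1 CPM on fructose, and 22.8, 25.3, 26.6, 24.7 and 21.1 CPM on dextrose. For both genes the controls were the most scattered group and spanned the other diets. Cldn15, Cldn7, Cldn4 and Cldn23 stayed at or below 1.76 CPM in every liver library, and the highest Cldn4 values, 1.76 and 1.26 CPM, were again in control 2 and dextrose 5.

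**Figure D5:**
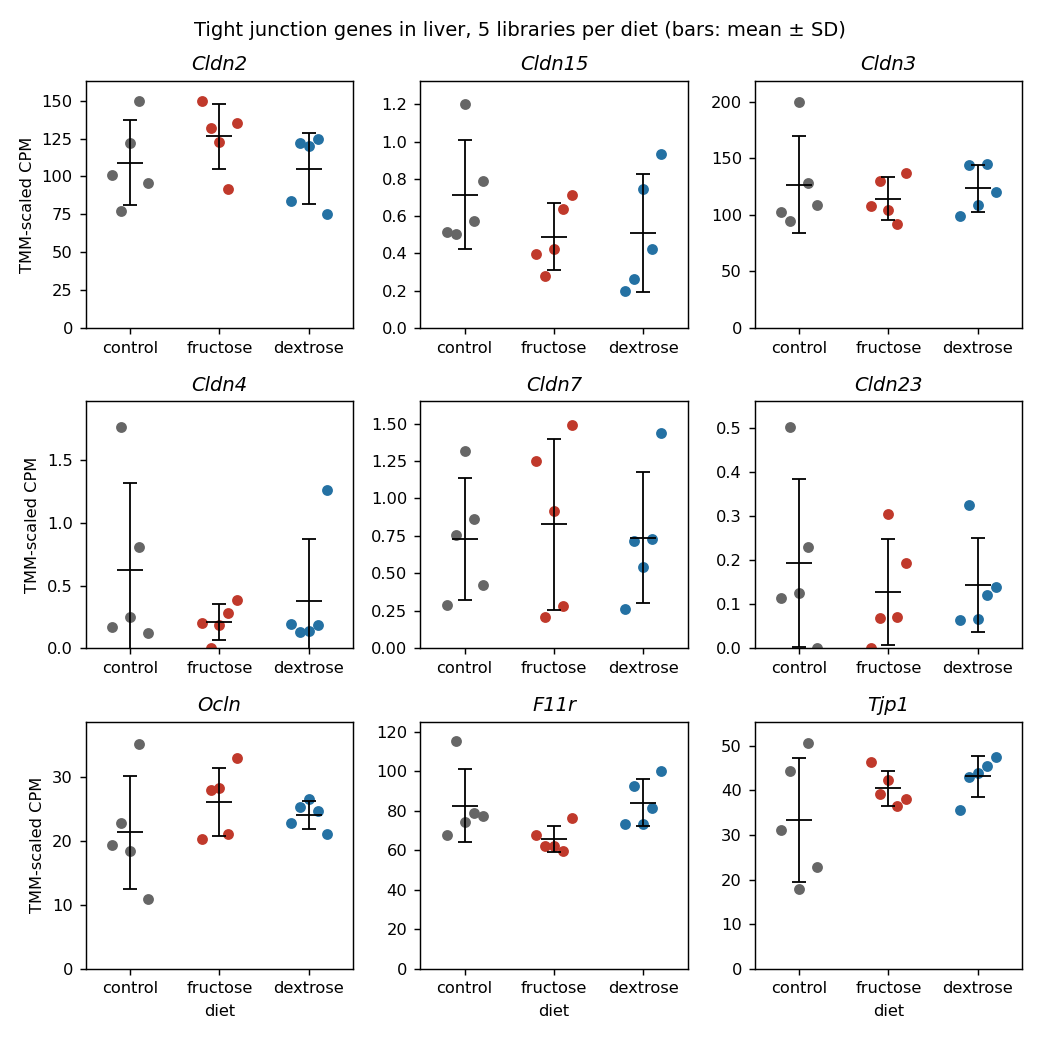
CPM of each of the 9 genes in liver by diet, 1 point per library, with the mean and SD of 5 libraries as bars and each axis starting at 0. The diets overlap for each gene, and Cldn4, Cldn7, Cldn15 and Cldn23 stay at or below 1.76 CPM in every library.

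Of the other junction genes 61 could be tested in liver. On fructose against control 1 rose and 1 fell, where 0.258% of all 13178 genes were called, 25 higher and 9 lower. On fructose against dextrose 1 fell, the same gene as against control, where 0.0759% of all genes were called in either direction. On dextrose against control 0 were called, as over all genes. The gene that rose and the gene that fell were named after their values were seen. Tjp3, which encodes the scaffold ZO-3, had 33.3, 33.3, 39.3, 44.4 and 25.5 CPM on control and 56.0, 58.4, 51.5, 57.6 and 52.6 CPM on fructose, without overlap. It was higher by 0.65 ± 0.12 (adjusted p = 0.0448 by edgeR), and missed the threshold in 16 alternatives. Ildr2, a member of the angulin family of tricellular junction proteins, had 9.73, 12, 9.76, 10.9 and 7.5 CPM on control, 3.23, 3.07, 3.53, 4.24 and 5.75 CPM on fructose and 10.3, 9.58, 6.96, 10.3 and 8.01 CPM on dextrose. Its fructose libraries lay below all others, by -1.33 ± 0.19 against control (adjusted p = 0.00896) and -1.18 ± 0.19 against dextrose (adjusted p = 0.0217), both by edgeR. The call against control missed the threshold in 1 alternative, the replicate block (adjusted p = 0.0555 by edgeR), and the call against dextrose in 9, with adjusted p up to 0.147. Without the libraries that stood apart Ildr2 had -1.26 and -1.21, and Tjp3 0.63 against control, each past the threshold.

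Whether a diet effect differed between the tissues was tested as an interaction over all 30 libraries. With edgeR 0 of the 9 genes were called for fructose, where 1.08% of 15268 genes were, and 0 of 9 for dextrose, where 0.118% were. For Cldn23 the fructose effect in duodenum exceeded that in liver by 1.29 ± 0.63 (SE, interval 0.01 to 2.58, adjusted p = 0.373 by edgeR), with the liver value resting on at most 12 counts in a library. For F11r it was 0.46 ± 0.19 (interval 0.06 to 0.85, adjusted p = 0.284 by edgeR), and for Cldn15 0.81 ± 0.37 (interval 0.04 to 1.57, adjusted p = 0.345 by edgeR). The largest value of the 9 was that of Cldn4, 2.08 ± 0.82 (interval 0.39 to 3.76, adjusted p = 0.251 by edgeR). Its liver counts ran from 0 to 42 per library, with the 42 in liver control 2. For Cldn23, limma on log2(FPKM + 1) gave 0.58 (adjusted p = 0.0378) and called this difference, and the other alternatives did not. Without liver control 2 the value was 0.47 (adjusted p = 0.843 by edgeR), and without all libraries that stood apart 0.42 (adjusted p = 0.89 by edgeR).

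The makeup of the 9 genes was described last, as shares of their summed FPKM. In duodenum the sum was 2330 ± 143 on control, 2556 ± 109 on fructose and 2532 ± 206 on dextrose (SD, n = 5). The share of Cldn23 was 0.92% ± 0.121 on control, 1.22% ± 0.137 on fructose and 0.899% ± 0.136 on dextrose, and that of Cldn4 was 4.25% ± 1.34, 4.88% ± 0.568 and 2.84% ± 0.817. The ratio of the pore-forming Cldn2 and Cldn15 to the other 4 claudins was 0.438 ± 0.0728, 0.463 ± 0.021 and 0.459 ± 0.0449, differences smaller than the spread of the controls. In liver the same ratio was 0.82 ± 0.19 on control, 1.02 ± 0.152 on fructose and 0.787 ± 0.155 on dextrose, with overlapping ranges of 0.563 to 1.07, 0.898 to 1.26 and 0.571 to 1.01.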

How the data were processed

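Poly-A RNA from duodenum and liver of C57BL/6 mice was sequenced with the NEBNext Ultra kit, per the labels' protocols. The authors deposited raw read counts per gene and FPKM, in a table of 30 libraries. The submitters' processing notes name Bowtie2 2.2.3, TopHat2 2.0.12, DESeq 1.18.0 and HTSeq 0.6.1. Genome build, annotation and strand setting are not given in the sources used here. Each deposited FPKM was found to be the count over 1 length per gene and the library total, within 0.001 for 100% of values. Without strand, reads of overlapping genes cannot be told apart: in GENCODE M21, 40 of the 1259 exonic bases of Cldn3 (3.18%) overlap the antisense gene Wbscr25, and the other 8 genes share 0.

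Counts were fitted in R 4.3.3 with edgeR 4.0.16: filterByExpr by group, TMM factors, a robust quasi-likelihood F test, two-sided, Benjamini-Hochberg adjusted over every gene tested, with a threshold of 0.05. Each tissue was fitted with its 15 libraries; contrasts of both tissues used all 30. The 9 genes and the lists were chosen with earlier results of these data known. All 9 genes are described. Of 82 other junction genes (6 lists), those past the threshold in duodenum are counted, and the 3 of a list with the smallest p against control are named. For Cldn23 the 2 genes closest in profile are named. Alternatives were upper-quartile or RLE factors, DESeq2 1.42.0, no filter, at least 1 CPM in 5 libraries, limma 3.58.1 on log2(FPKM + 1) and log2(FPKM + 0.1), voom with quality weights, a replicate block, only the diets compared, omission of the libraries that stood apart, and omission of each library; a block joining both tissues was added after seeing the data. Total counts were 14530137 to 19850935 per library, which makes counting error small for all but the liver claudins near 0. Libraries of one group all differed beyond counting error, the smallest chi-square over its degrees of freedom being 8.23. The procedure was tested on simulated data.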

Additional observations from a re-analysis of the deposited data

Results flagged for a closer look

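Among 54 combinations of gene and group with 5 libraries each, 4 held a library whose gap to the nearest other exceeded Dixon's critical value of 0.71; chance flags about 1 in 20 such groups. Cldn3 had 531 CPM in duodenum control 1, where the other controls had 298 to 355 CPM. F11r had 115 CPM in liver control 2, where the other liver controls had 67.5 to 78.8 CPM. Cldn4 had 1.26 CPM in liver dextrose 5, where the other 4 had 0.13 to 0.196 CPM. Cldn23 had 0.326 CPM in liver dextrose 2, where the other 4 had 0.0653 to 0.14 CPM, a difference of a few counts. Liver control 2 and dextrose 5 are the libraries that stood apart in cell cycle and epithelial structural genes, and their part in these values was not tested.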

How the results depend on the processing

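Across 70 log2 differences and 2135 alternative values, 2004 kept their direction and their side of the threshold, 69 lost a call, 12 gained one and 50 changed sign. The number of the 9 genes called in duodenum fructose against control, 1, was 0 without the libraries that stood apart and 1 to 2 when 1 library was left out. In duodenum fructose against dextrose it was 1, rose to 2 with DESeq2, with at least 1 CPM in 5 libraries, with limma on both FPKM scales, with voom and with only the 2 diets, was 0 without the libraries that stood apart, and was 0 to 2 when 1 library was left out. In liver fructose against dextrose voom called 1 (F11r, -0.37), and for the fructose interaction limma on log2(FPKM + 1) called 1 (Cldn23, 0.58). The cause was not tested.

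Values near 0 that changed sign were, in duodenum, Tjp1 fructose minus control (-0.011 with limma on both scales) and Cldn3 and Ocln dextrose minus control (-0.093 and -0.052 without the libraries that stood apart). For fructose minus dextrose in duodenum, Cldn2 changed sign with limma on both scales (-0.012 and -0.015) and Cldn15 with voom (-0.007). In liver, dextrose minus control was 0.012 for Cldn2 with voom, and 0.020 with limma and 0.127 with voom for Cldn3. The Ocln fructose interaction was 0.016 with no filter. None of these had been called. Leaving out 1 library gave both signs for Tjp1 fructose minus control in duodenum (-0.002 to 0.134), for dextrose minus control of Cldn3 (-0.041 to 0.180), Ocln (-0.049 to 0.098) and Tjp1 (-0.124 to 0.011), and for fructose minus dextrose of Cldn2 (-0.199 to 0.274), Cldn7 (-0.111 to 0.015) and F11r (-0.115 to 0.036). In liver it did so for Cldn3 fructose minus control (-0.233 to 0.077) and for dextrose minus control of Cldn2 (-0.159 to 0.087), Cldn3 (-0.126 to 0.176) and F11r (-0.044 to 0.174). Among the interactions it did so for Cldn2 (-0.155 to 0.302) and Ocln (-0.275 to 0.140) with fructose, and for Cldn3 (-0.138 to 0.239), Ocln (-0.380 to 0.035) and F11r (-0.007 to 0.207) with dextrose.

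Counts over all genes that moved by more than 1.5 times were, in duodenum, 932 for fructose against control (1466 with voom, 329 without the libraries that stood apart), 312 for dextrose against control (520 with DESeq2, 492 with voom, 163 without those libraries; 185 to 330 without 1 library) and 506 for fructose against dextrose (826, 1513 and 274; 310 to 574). In liver they were 34 for fructose against control (232 with DESeq2, 100 with voom, 4 with the replicate block, 14 with only the 2 diets, 225 without the libraries that stood apart; 6 to 62 without 1 library) and 10 for fructose against dextrose (143, 1310, 0, 46 and 250, and 16 with no filter; 3 to 31). Interactions gave 165 for fructose (385 with DESeq2, 370 with limma on log2(FPKM + 1), 308 with voom; 102 to 225) and 18 for dextrose (90, 69 and 55, 44 with log2(FPKM + 0.1), 10 with the block joining both tissues, 36 without the libraries that stood apart; 13 to 32).

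Libraries with the same replicate number deviated together in no pair of groups throughout: correlations of same-numbered libraries ran from -0.44 to 0.485, and at most 3 of 5 matched best with their own number. One mouse could give both libraries only where the diet was the same and the tissue differed. There the correlations were -0.015 to 0.151 for fructose, 0.003 to 0.133 for dextrose and -0.006 to 0.07 for control. Of the 5 numbers, 3, 2 and 1 matched best with their own. Weak correlations cannot show whether a number marks one mouse. The labels state no pairing, so none is taken, and a pairing across tissues may be missed. With the replicate block the count of the 9 genes called was 1, 0 and 1 in the duodenum comparisons, 0 in liver and in the interactions and 9 between the tissues, as without it. Cldn23 gave 0.61 over control (adjusted p = 0.00955) and 0.52 over dextrose (adjusted p = 0.0337), both by edgeR.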
